A study of Mus musculus with 40 samples.

Results

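The genes described here are the nuclear-encoded genes of the mitochondrial respiratory chain. They were chosen by name: protein-coding genes whose symbol begins with Nduf, Uqcr, Atp5 or with Cox4, Cox5, Cox6, Cox7 or Cox8, and Sdha, Sdhb, Sdhc, Sdhd and Cycs. The rule used no measured value. It found 95 genes among the 28467 genes of the bulk table, of which 18004 were protein-coding. By role these were 36 subunits of complex I, 8 assembly factors of complex I, 4 subunits of complex II, 8 of complex III, cytochrome c, 20 of complex IV including its tissue isoforms, and 18 of complex V. Ndufa4 and Ndufa4l2 were counted with complex IV, of which NDUFA4 is a subunit.

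The respiratory chain sits in the inner mitochondrial membrane. Complexes I and II pass electrons from NADH and succinate to ubiquinone, complex III passes them on to cytochrome c, and complex IV passes them to oxygen. Complex V, the ATP synthase, uses the resulting proton gradient to make ATP. Most subunits are encoded in the nucleus and a few in mitochondrial DNA, so each complex other than II is built from both genomes. The proximal tubule and the thick ascending limb of the kidney are rich in mitochondria, because the reabsorption of sodium consumes ATP.

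All mice were male C57BL/6, aged 8 to 12 weeks, and no genetic change is named in the labels. The left kidney was removed in nephrectomy mice (UNx in the figures) and left in place in sham mice, and a cross-section of the right kidney was measured in both. Bulk RNA-seq was done at 24, 48 and 72 h after surgery with 6 mice per group and time, and single-nucleus RNA-seq at 24 h with 2 mice per group. Each library has a mouse of its own in the labels; all bulk mice of 24 h belong to batch 1, while batch 2 holds the later bulk mice. The question asked of these genes was whether their transcripts in the remaining kidney differed from those in sham kidneys, complex by complex.

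Promoters are shown for 1 gene of each complex and for Cycs, because many respiratory chain genes share binding motifs of the factors NRF1 (nuclear respiratory factor 1) and GABPA (an ETS factor). The sequences are RefSeq's for the build GRCm38.p6, matched for 77 of the 95 genes, and they were picked after the letters had been seen. Each line holds the 250 bases before the start site, 5′ to 3′ on the gene's own strand. Capitals mark matches to the NRF1 motif (GCGCA, any base, GCGC) or to CCGGAA or its reverse complement TTCCGG (ETS). All 6 genes lie on the minus strand: Ndufs5 at chr4:123718187-123718436, Sdha at chr13:74350241-74350490, Uqcrfs1 at chr13:30545317-30545566, Cycs at chr6:50566570-50566819, Cox6a1 at chr5:115348959-115349208 and Atp5h at chr11:115419920-115420169.
Ndufs5: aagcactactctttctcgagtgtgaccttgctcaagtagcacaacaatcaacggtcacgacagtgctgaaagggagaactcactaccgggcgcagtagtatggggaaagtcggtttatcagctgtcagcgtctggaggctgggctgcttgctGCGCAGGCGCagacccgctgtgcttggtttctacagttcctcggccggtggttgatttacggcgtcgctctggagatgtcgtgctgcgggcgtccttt
Sdha: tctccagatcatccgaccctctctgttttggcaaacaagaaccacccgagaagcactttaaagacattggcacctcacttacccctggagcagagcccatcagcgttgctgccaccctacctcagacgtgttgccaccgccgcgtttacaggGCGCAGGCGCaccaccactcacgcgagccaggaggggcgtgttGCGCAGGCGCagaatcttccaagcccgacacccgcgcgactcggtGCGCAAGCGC
Uqcrfs1: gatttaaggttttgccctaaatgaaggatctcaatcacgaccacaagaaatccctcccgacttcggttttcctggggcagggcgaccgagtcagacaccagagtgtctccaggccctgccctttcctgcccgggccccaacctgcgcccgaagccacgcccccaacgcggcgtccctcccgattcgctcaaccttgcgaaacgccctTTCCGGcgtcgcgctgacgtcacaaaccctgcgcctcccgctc
Cycs: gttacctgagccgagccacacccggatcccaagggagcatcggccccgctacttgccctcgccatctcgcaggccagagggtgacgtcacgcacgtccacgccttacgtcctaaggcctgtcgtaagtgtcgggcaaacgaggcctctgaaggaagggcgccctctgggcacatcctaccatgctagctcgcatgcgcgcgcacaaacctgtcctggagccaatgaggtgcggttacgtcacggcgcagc
Cox6a1: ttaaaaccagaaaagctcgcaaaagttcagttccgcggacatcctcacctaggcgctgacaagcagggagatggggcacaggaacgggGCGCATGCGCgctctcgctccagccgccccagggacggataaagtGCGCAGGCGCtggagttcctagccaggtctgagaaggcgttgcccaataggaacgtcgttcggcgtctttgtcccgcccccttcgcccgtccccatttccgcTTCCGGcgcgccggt
Atp5h: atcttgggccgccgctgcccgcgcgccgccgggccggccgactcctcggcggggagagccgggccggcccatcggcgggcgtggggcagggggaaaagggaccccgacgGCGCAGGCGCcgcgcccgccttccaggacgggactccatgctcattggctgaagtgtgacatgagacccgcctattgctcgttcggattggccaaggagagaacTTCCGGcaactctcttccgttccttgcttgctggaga

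The Sdha window held 3 matches to the NRF1 motif, at 98, 55 and 10 bases before the start site, and the Cox6a1 window held 2 of them and an ETS match. The windows of Ndufs5 and Atp5h held 1 NRF1 match each, and that of Uqcrfs1 held an ETS match only. The Cycs window held no exact match to any of the motifs searched. Near matches were not counted in any window, so a site that differs by a base is missed. Over windows of 250 bases before to 50 after the start site, read on both strands, 19 of 77 respiratory chain genes (24.7%) held the NRF1 motif, against 5.19% of all 27025 genes with a promoter in the table. The ETS motif CCGGAA was in 28 (36.4%, against 16.7%), the YY1 motif GCCATCTT in 10 (13.0%, against 3.19%) and TGACCTTTG or TCAAGGTCA, letters of the ESRR motif, in 2 (2.60%, against 1.01%). These matches are descriptions of letters and do not show binding.

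The bulk libraries held 14.9 to 24.1 M counts. The respiratory chain genes took 1.40% to 2.29% of a library's counts and the mitochondrially encoded genes 13.6% to 26.7%. Libraries differed in their general make-up, mainly between groups and, at 48 h, also within the nephrectomy group. This was described with a profile score. The score was computed from 203 pseudogenes outside the gene set and runs from 0, the mean of the shams of 48 and 72 h, to 1, the mean of the 24 h shams. It was 0.94 to 1.04 in the 24 h shams and 0.73 to 0.92 in the 24 h nephrectomy libraries. At 48 h, 5 of 6 nephrectomy libraries scored 0.70 to 0.75, while replicate 6 scored 0.01, within the range of the 48 h shams (-0.03 to 0.06). At 72 h all libraries scored between -0.04 and 0.07. The mitochondrially encoded share moved with the score: at 48 h it averaged 14.7% in shams and was 25.8% to 26.4% in nephrectomy replicates 1 to 5, but 15.2% in replicate 6. Counts at 24 and 48 h are therefore also given with the score as a covariate and, at 48 h, without replicate 6. In the covariate fits no respiratory chain gene passed the test at any time. What the score stands for was not tested.

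Transcript levels in 72 h shams, in CPM (counts scaled to a common library total) per kb of exon, were led by the catalytic subunits of the ATP synthase. Atp5a1, the alpha subunit, stood at 611 and Atp5b, the beta subunit, at 567 CPM per kb. They were followed by the complex IV subunits Cox8a at 466, Cox6a1 at 402, Cox6b1 at 356 and Cox4i1 at 315 CPM per kb. The lowest were tissue isoforms of complex IV: Cox8c at 0, Cox7b2 at 0.013, Cox4i2 at 0.45, Cox6a2 at 1.17, Ndufa4l2 at 1.69 and Cox6b2 at 2.12 CPM per kb. Cox4i2, Cox7b2 and Cox8c were too low to be tested at any time, and Cox8b too low at 24 h. The 5 annotated copies of these genes with a -ps symbol had group means of at most 0.11 CPM. Copies under other symbols were not looked up.

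At 24 h the respiratory chain genes were, on balance, higher in nephrectomy kidneys. The highest log2 fold changes were those of Ndufc1 in complex I (0.93) and Atp5l in complex V (0.79). The lowest were those of Ndufs5 (-0.76) and Ndufs6 (-0.68) in complex I. These genes also differed strongly between the 24 h shams and the later shams, as given below. By edgeR's quasi-likelihood test with Benjamini-Hochberg adjustment over all genes, 50 of 91 tested genes rose and 9 fell at an adjusted p under 0.05. Of all 14104 genes tested, 14.2% rose and 13.1% fell. At an unadjusted p under 0.05, 55 were higher and 9 lower (20% and 19.1% of all genes). The median log2 fold change of nephrectomy over sham was 0.22, against 0.01 over all genes, and 68 of 91 were positive, against 50.8% of all genes. In 29 genes the nephrectomy libraries all lay above the shams and in 4 they all lay below (5.28% and 5.02% of all genes). With the profile score as a covariate none of these genes was called, the median was 0.04 and 62 of 91 were positive. In that fit 8 were higher and 0 lower at an unadjusted p under 0.05, against 5.30% and 4.06% of all genes. At an adjusted p under 0.05, 0.376% of all genes rose. The score ranges of the groups did not overlap at 24 h. That fit therefore cannot separate score from nephrectomy, and its values below are descriptions. In whole-kidney RNA, fewer cells of a type and less RNA per cell cannot be told apart.

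**Figure D1:**
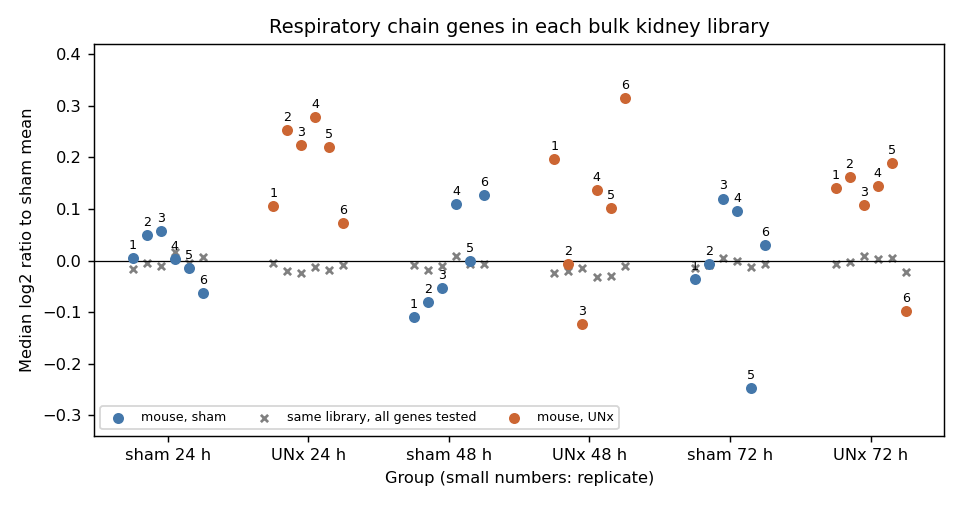
Median log2 ratio of the respiratory chain genes to the mean of the same-time shams, for each of the 36 bulk libraries (points, numbered by replicate; groups of 6 on the x axis, log2 ratio on the y axis), with the median of all genes tested as crosses. At 24 h the 6 nephrectomy libraries lie between 0.07 and 0.28, at 48 h they spread from -0.12 to 0.32, and at 72 h 5 of 6 lie between 0.11 and 0.19 with replicate 6 at -0.10.

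In the plot of library medians every 24 h nephrectomy library had a median above that of every sham: 0.07 to 0.28 against -0.06 to 0.06. The lowest was replicate 6, which also had the highest profile score of its group, 0.92.

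Cycs encodes cytochrome c, the mobile carrier between complexes III and IV, which also triggers apoptosis when released from mitochondria. Its level at 24 h was 133 CPM in the lowest sham, 149 at the median and 159 in the highest, and 212, 224 and 248 CPM in nephrectomy kidneys. The groups did not overlap. The log2 fold change was 0.61 (SE 0.06, edgeR adjusted p = 1.34e-05), and with the score as a covariate it was 0.56 without passing the test. Of the 91 genes tested at 24 h, Cycs had the lowest adjusted p.

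Complex I subunits moved in both directions at 24 h: 20 of 36 rose, 4 fell and 12 did not pass. Among the 7 core subunits, which carry the redox centres and the NADH and ubiquinone sites, 5 rose and 0 fell. Ndufv2, a core subunit with an iron-sulfur cluster, measured 78.0, 84.5 and 95.1 CPM in shams (lowest, median, highest) and 104, 121 and 129 CPM in nephrectomy kidneys. Its groups did not overlap and its log2 fold change was 0.50 (SE 0.06, edgeR adjusted p = 0.000149). Ndufs5, an accessory subunit on the intermembrane side, went the other way, with 82.2, 118 and 126 CPM in shams against 53.6, 64.2 and 76.7 CPM. All nephrectomy libraries lay below all shams, and its level fell by 0.76 on the log2 scale (SE 0.11, edgeR adjusted p = 0.000272). Ndufs6, a zinc-binding accessory subunit, fell by 0.68 (SE 0.10, adjusted p = 0.000296), from 124, 172 and 178 to 89.8, 95.6 and 117 CPM. The other 2 that fell were the accessory subunits Ndufa1 and Ndufb3, at -0.46 and -0.23. With the score as a covariate the log2 fold changes of Ndufs5 and Ndufs6 were -0.18 and -0.12, and that of Ndufv2 was 0.15. Of the 8 assembly factors of complex I, Ndufaf3, Ndufaf5 and Ndufaf8 rose and none fell. Ndufaf3 measured 8.65, 9.56 and 11.9 CPM in shams and 10.7, 12.9 and 13.9 CPM in nephrectomy kidneys, with overlap (log2 fold change 0.36, SE 0.09, edgeR adjusted p = 0.00717; -0.10 with the covariate). Ndufaf6, the member of this group furthest down, did not pass (-0.20, adjusted p = 0.199).

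Complex II, succinate dehydrogenase, is encoded entirely in the nucleus and also works in the citric acid cycle. Its membrane anchor Sdhd rose from 141, 150 and 162 CPM to 187, 222 and 226 CPM at 24 h, without overlap (log2 fold change 0.50, SE 0.06, edgeR adjusted p = 9.38e-05). The iron-sulfur subunit Sdhb rose from 214, 232 and 244 CPM to 245, 272 and 280 CPM, again without overlap (0.22, SE 0.05, edgeR adjusted p = 0.00943). The flavoprotein Sdha, at 849, 892 and 970 CPM in shams and 792, 853 and 892 CPM in nephrectomy kidneys, and the other anchor Sdhc, at 177, 184 and 189 CPM and 182, 194 and 209 CPM, overlapped and did not pass (adjusted p = 0.275 and 0.136). With the covariate Sdhd stood at 0.28 and Sdhb at 0.04.

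In complex III, 5 of 8 subunits rose at 24 h and 1 fell. Uqcr10, a small subunit, rose from 90.8, 97.7 and 105 CPM to 112, 130 and 135 CPM, with no overlap (log2 fold change 0.38, SE 0.06, edgeR adjusted p = 0.000617). Uqcrb, which binds ubiquinone, fell from 213, 287 and 302 CPM to 185, 215 and 233 CPM (-0.33, SE 0.09, edgeR adjusted p = 0.0106). Its groups overlapped, and with the covariate its value was 0.06. The Rieske iron-sulfur protein Uqcrfs1 rose from 147, 156 and 177 CPM to 164, 204 and 217 CPM (0.32, SE 0.07, edgeR adjusted p = 0.00374), and stood at -0.09 with the covariate, where Uqcr10 was at 0.17.

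In complex IV, cytochrome c oxidase, 9 of 16 tested genes rose at 24 h and 2 fell. Cox5a, a matrix-side subunit, rose from 68.3, 83.4 and 88.7 CPM to 108, 129 and 139 CPM without overlap (log2 fold change 0.68, SE 0.08, edgeR adjusted p = 6.52e-05). Cox7a2l, a factor that joins complexes III and IV into supercomplexes, fell from 122, 160 and 169 CPM to 98.5, 104 and 114 CPM, and its groups did not overlap (-0.51, SE 0.08, edgeR adjusted p = 0.000706). The other fall was that of Cox7a1, the heart and muscle isoform (-0.49, adjusted p = 0.0292), which was low at 7.78, 11.7 and 12.6 CPM in shams. The abundant subunits Cox4i1 and Cox6a1, at sham medians of 423 and 322 CPM, did not pass (-0.02 and 0.04). With the covariate Cox5a stood at 0.23 and Cox7a2l at -0.14.

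In complex V, 10 of 18 genes rose at 24 h and 2 fell. Atp5l, a membrane subunit that helps hold the enzyme in dimers, rose from 76.7, 79.1 and 99.3 CPM to 104, 156 and 167 CPM, with no overlap (log2 fold change 0.79, SE 0.10, edgeR adjusted p = 0.000186). Atp5g1, 1 of 3 genes for the c subunit of the rotor ring, rose from 86.9, 101 and 115 CPM to 147, 154 and 175 CPM, also without overlap (0.65, SE 0.07, edgeR adjusted p = 6.52e-05). With the covariate these values were 0.08 for Atp5l, 0.44 for Atp5g1 and -0.13 for Atp5h. Atp5h, subunit d of the peripheral stalk, fell from 207, 247 and 268 CPM to 188, 199 and 204 CPM, without overlap (-0.28, SE 0.06, edgeR adjusted p = 0.00494). The other fall was Atp5d, the delta subunit of the central stalk (-0.27, adjusted p = 0.0132; 0.12 with the covariate). The catalytic subunits Atp5a1 and Atp5b did not pass, at 0.09 and 0.12.

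Summed by complex, the 24 h means of nephrectomy over sham differed by 6.64% for complex I, 3.67% for II, 4.33% for III, 11.1% for IV and 8.69% for V, and by 51.6% for cytochrome c. The sum of complex V lay above the highest sham in 6 of 6 nephrectomy libraries, and the sum of all 95 genes in 5 of 6 (16157 ± 210 CPM in shams and 17449 ± 722 CPM in nephrectomy kidneys, SD, n = 6). These sums are descriptions without a test.

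**Figure D2:**
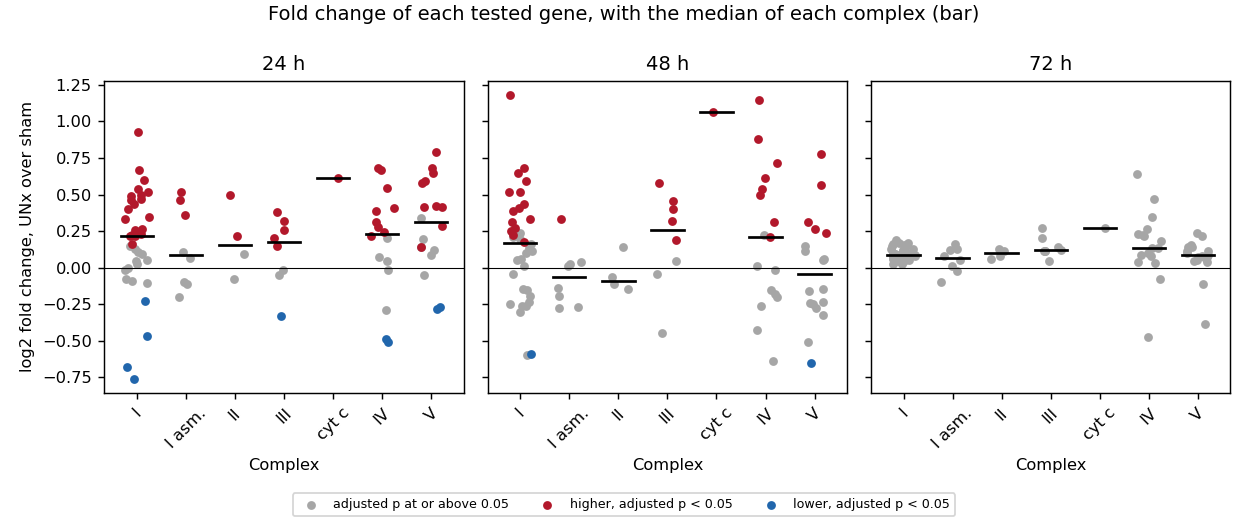
Log2 fold changes of nephrectomy over sham for each tested respiratory chain gene (points), grouped by complex on the x axis and shown for 24, 48 and 72 h, with the y axis in log2 units; bars are medians, and red and blue points passed the test as higher and lower. At 72 h the points of complex I lie within 0.02 to 0.19, whereas at 48 h they reach from -0.60 to 1.18.

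At 48 h the same genes split more widely, with large rises of Ndufa12, Cycs, Cox6a1, Atp5d and Ndufv3 and low values of other subunits of the same complexes. By edgeR's test 35 of 92 rose and 2 fell, where 16.9% of all 14280 genes rose and 16% fell. The median was 0.08, against -0.04 over all genes, and 56 were positive, against 45.3% of all genes. In 20 genes the nephrectomy libraries all lay above the shams and in none all below (7.05% and 4.13% of all genes). At an unadjusted p under 0.05, 38 were higher and 11 lower (21.4% and 23% of all genes). Without nephrectomy replicate 6, 38 rose and 26 fell (21.9% and 19.8% of all genes), with a median of 0.05. Replicate 6 taken alone had 90 of 92 genes above the sham mean (45.6% of all genes), at a median of 0.30. Single shams of 48 h ranged from 6 to 84 of 92 genes above that mean. No gene was called from replicate 6; 63 were higher and 0 lower at an unadjusted p under 0.05 (8.08% of all genes were higher). These p-values take their spread from the shams alone and assume that a single nephrectomy library varies like them, so they describe that library and not the condition. With the profile score as a covariate 0 were called, 90 were positive and the median was 0.32, where no gene of all tested rose at an adjusted p under 0.05. In that fit 56 were higher and 0 lower at an unadjusted p under 0.05, against 7.42% and 6.55% of all genes. Replicate 6 was the only nephrectomy library of 48 h with a profile score in the sham range. The nephrectomy effect of the covariate fit therefore rests largely on replicate 6 and is not a separate result for the condition.

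The direction of the whole set at 48 h depended on the scaling. With library sizes in place of TMM factors, the median of all genes was -0.35 and that of the respiratory chain genes -0.23, with 23 of 92 positive. With mitochondrially encoded genes left out of the total the medians were -0.18 and -0.07, with 40 of 92 positive. Relative to the median of all genes the set stood 0.12 higher under each of the 3 scalings, and 57 of 92 genes lay above that median. A change of scaling shifts all genes by nearly the same amount. This difference could therefore hardly change, and its sameness is no check of the result.

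Cycs at 48 h measured 134, 144 and 152 CPM in shams and 234, 299 and 384 CPM in nephrectomy kidneys. The groups did not overlap, and replicate 6, at 234 CPM, was the lowest of its group. The log2 fold change was 1.06 (SE 0.10, edgeR adjusted p = 0.000346). It was 1.15 without replicate 6 and 0.70 in both replicate 6 alone and the covariate fit. Its mean remained above that of shams under every scaling tried, by 66.0% with library sizes alone and by 112% with TMM factors.

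In complex I, 15 of 36 subunits rose at 48 h and 1 fell, and without replicate 6 the counts were 18 and 9. Ndufa12, an accessory subunit of the matrix arm, measured 79.1, 82.3 and 93.1 CPM in shams and 105, 202 and 235 CPM in nephrectomy kidneys. No nephrectomy library reached down to the shams, but replicate 6, at 105 CPM, stood apart from the other 5 at 194 to 235 CPM. The log2 fold change was 1.18 (SE 0.15, edgeR adjusted p = 0.000346), and 0.30 for replicate 6 alone. Ndufa2, an accessory subunit with a thioredoxin-like fold, measured 62.3, 72.2 and 83.7 CPM in shams and 36.8, 44.7 and 82.6 CPM in nephrectomy kidneys (-0.59, SE 0.17, edgeR adjusted p = 0.0164). Its replicates 1 to 5 lay at 36.8 to 47.4 CPM, below every sham, while replicate 6 lay within the shams and stood at 0.17 on its own. Ndufs5 rose slightly at 48 h, from 48.4, 49.8 and 53.8 CPM to 52.2, 58.3 and 61.5 CPM (0.17, SE 0.06, edgeR adjusted p = 0.0277). Of the 8 assembly factors 1 rose and 0 fell, and without replicate 6 the counts were 1 and 3 (Ndufaf4, Ndufaf5 and Ndufaf8 fell). Ndufaf2 rose, from 10.3, 10.9 and 11.3 CPM to 12.3, 13.4 and 17.5 CPM without overlap (0.33, SE 0.09, edgeR adjusted p = 0.00989). With the covariate Ndufs5 stood at 0.24 and Ndufaf2 at 0.30. Ndufaf5 was at -0.28 and did not pass (adjusted p = 0.0741; 0.0240 without replicate 6).

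No subunit of complex II passed the test at 48 h. Sdhb was at 0.14 and Sdhc at -0.15 (adjusted p = 0.245 and 0.293), Sdha at -0.07 and Sdhd at -0.11. Sdhc measured 240, 249.1 and 277 CPM in shams and 191, 221 and 316 CPM in nephrectomy kidneys, where replicate 6 was the highest and replicates 1 to 5 reached 239 CPM. Without replicate 6 Sdhc fell by 0.23 on the log2 scale (edgeR adjusted p = 0.0120).

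In complex III, 5 of 8 subunits rose at 48 h and none fell, and without replicate 6 the counts were 5 and 1. Uqcrb, which had fallen at 24 h, rose from 130, 145 and 158 CPM to 194, 214 and 261 CPM, without overlap (0.58, SE 0.08, edgeR adjusted p = 0.000353). Uqcrfs1 measured 252, 262 and 287 CPM in shams and 154, 171 and 347 CPM in nephrectomy kidneys and did not pass (-0.44, SE 0.17, adjusted p = 0.0566). Its replicates 1 to 5, at 154 to 179 CPM, lay below every sham and replicate 6 lay above every sham. Without replicate 6 Uqcrfs1 fell by 0.66 on the log2 scale, and Uqcrb stood at 0.43 with the covariate.

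In complex IV, 8 of 17 genes rose at 48 h and none fell, and without replicate 6 the counts were 8 and 4. Cox8a, a small membrane subunit, rose from 305, 335 and 360 CPM to 458, 505 and 599 CPM (0.61, SE 0.07, edgeR adjusted p = 0.000346). Its groups did not overlap, and replicate 6, at 480 CPM, lay within the range of the other nephrectomy libraries. Cox6a1, another small subunit, rose from 288, 302 and 328 CPM to 389, 581 and 692 CPM, without overlap (0.88, SE 0.11, edgeR adjusted p = 0.000346; 0.34 for replicate 6 alone). Cox5a, which had risen at 24 h, measured 173, 200.5 and 212 CPM in shams and 120, 124 and 274 CPM in nephrectomy kidneys and did not pass (-0.43, adjusted p = 0.0897). Replicate 6 was the library at 274 CPM.

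In complex V, 5 of 18 genes rose at 48 h and 1 fell, and without replicate 6 the counts were 5 and 8. Atp5d rose from 245, 250.5 and 283 CPM to 333, 457 and 505 CPM, without overlap (0.77, SE 0.09, edgeR adjusted p = 0.000346). Atp5e, the epsilon subunit, fell from 97.2, 104 and 125 CPM to 49.1, 58.5 and 129 CPM (-0.65, SE 0.20, edgeR adjusted p = 0.0219). Its replicates 1 to 5 lay below every sham and replicate 6 above every sham, at 0.25 on its own. Atp5g1 rose from 194, 208 and 239 CPM to 233, 275 and 296 CPM, with overlap (0.32, SE 0.07, edgeR adjusted p = 0.00570). With the covariate Atp5d stood at 0.38 and Atp5g1 at 0.39.

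The 48 h sums of nephrectomy over sham differed by 12.9% for complex I, -2.22% for II, 13.2% for III, 15.1% for IV and 7.02% for V, and by 112% for cytochrome c. With library sizes alone the sums of all complexes were lower than in shams, by -10.4% for I, -22.1% for II, -10.2% for III, -8.67% for IV and -14.9% for V, while cytochrome c was higher by 66.0%.

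**Figure D3:**
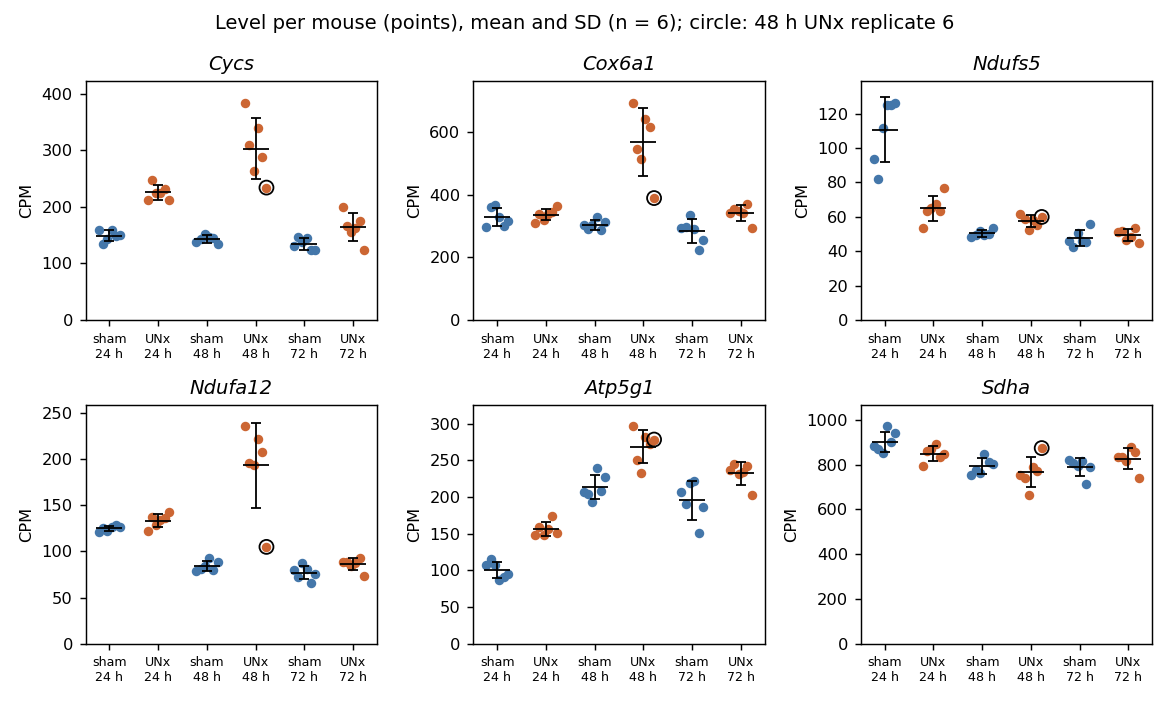
Levels of Cycs, Cox6a1, Ndufs5, Ndufa12, Atp5g1 and Sdha in CPM (y axis, linear) in each bulk library, by time and group (x axis); points are mice, and bars are group means with the SD (n = 6). Cycs in nephrectomy kidneys lies above all shams at 24 and 48 h, and the 48 h points of Ndufa12 and Cox6a1 hold 1 low nephrectomy library, the circled replicate 6.

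At 72 h the respiratory chain genes were slightly higher in most nephrectomy libraries, and no single gene passed the test. By edgeR's test 0 of 92 were called, where 1.21% of all 14556 genes rose and 0.502% fell; the lowest adjusted p was 0.0635. At an unadjusted p under 0.05, 17 were higher and 0 lower, against 8.88% and 8.40% of all genes. The DESeq2 Wald test called 3 (2.67% of all genes rose), and edgeR without nephrectomy replicate 6 called 8 (2.93%). The log2 fold change was positive for 86 of 92 genes, against 48.9% of all genes, and the median was 0.10, against 0.00 over all genes. With library sizes alone 78 of 92 were positive. In no gene were the groups apart (1.33% of all genes lay fully above and 0.618% fully below).

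Single libraries stood apart at 72 h. In nephrectomy replicates 1 to 5, 83 to 87 of 92 genes lay above the sham mean, and in replicate 6, 12 did. The shams spread as widely: replicates 3 and 4 had 83 and 82 of 92 genes above the sham mean, with medians of 0.12 and 0.10, and replicate 5 had 4, with a median of -0.25. Nephrectomy replicate 6 and sham replicate 5 had the highest TMM factors of their groups, 1.19 and 1.18. They also had the lowest proximal tubule marker sums of their groups, 14654 and 15445 CPM, and the highest principal cell sums, 776 and 597 CPM. The part of these in the 72 h values was not tested. The profile score did not separate the groups at 72 h, and with it as a covariate the median was 0.09, 78 of 92 genes were positive and 0 were called (0.625% of all genes rose). In that fit 12 were higher and 1 lower at an unadjusted p under 0.05, against 6.3% and 5.37% of all genes.

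All 36 complex I subunits had positive log2 fold changes at 72 h, from 0.02 for Ndufb9 to 0.19 for Ndufb8. Ndufb8, an accessory subunit of the membrane arm, measured 177, 195 and 202 CPM in shams and 196, 226 and 232 CPM in nephrectomy kidneys (0.19, SE 0.05, edgeR adjusted p = 0.0635). Its lowest nephrectomy library overlapped the shams. The genes share their libraries, so their common sign is not a count of independent measurements. The assembly factors were mixed, from -0.10 for Ndufaf1 to 0.16 for Ndufaf6.

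Of the other complexes at 72 h, the highest values were those of Cox8a, Cycs and Uqcrq among genes whose mean log2 CPM reached 3. Cox8a measured 227, 287 and 359 CPM in shams and 315, 371 and 400 CPM in nephrectomy kidneys, with overlap (0.35, SE 0.10, edgeR adjusted p = 0.0873). Cycs measured 124, 134 and 146 CPM and 124, 164 and 199 CPM, also with overlap (0.27, SE 0.09, edgeR adjusted p = 0.132). Uqcrq, a small subunit of complex III, measured 100, 120 and 138 CPM and 122, 151 and 161 CPM (0.27, SE 0.08, edgeR adjusted p = 0.0960). The complex II subunits stood between 0.06 for Sdha and 0.13 for Sdhc. In complex V the highest was Atp5g1 at 0.24 (adjusted p = 0.159), and Atp5s, the coupling factor B gene, was at -0.11. Summed by complex, the differences were 7.74% for I, 6.52% for II, 9.43% for III, 12.2% for IV, 7.68% for V and 21.7% for cytochrome c. With TMM factors, 5 of 6 nephrectomy sums lay above the highest sham in each of the 5 complexes, and the exception was replicate 6. This depended on the scaling. With library sizes alone the number above was 1 for I, 1 for II, 3 for III, 5 for IV and 1 for V. With mitochondrially encoded genes left out of the total it was 1, 2, 4, 5 and 4.

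The nephrectomy effects at 2 times were compared in 1 fit over all 36 libraries. Between 24 and 48 h the effect became more positive for 23 of 92 genes and more negative for 33 (19.3% and 17.7% of all genes tested). Complex V held 9 of its 18 genes among the more negative and 3 among the more positive. Ndufs6 shifted by 1.23 (SE 0.13, edgeR adjusted p = 2.20e-08) and Ndufa2 by -1.23, the lowest p in each direction. Between 24 and 72 h, 7 became more positive and 7 more negative (2.74% and 1.41%), led by Ndufs5 at 0.82 (SE 0.12, edgeR adjusted p = 0.000396) and Atp5l at -0.63. Between 48 and 72 h, 8 became more positive and 16 more negative (5.86% and 8.78%), led by Ndufa2 at 0.64 and Ndufa12 at -1.04 (SE 0.15, adjusted p = 5.2e-05); Cycs shifted by -0.80. With the profile score as a covariate no difference was called between 24 and 48 h or between 48 and 72 h. Between 24 and 72 h that fit called 3, all more positive later: Ndufs5, Ndufs6 and Atp5h (0.596% of all genes). The 24 h libraries are in another labelled batch than the later ones, so time and batch cannot be told apart in differences that involve 24 h.

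The shams themselves differed between the labelled batches. Relative to the mean of the 48 and 72 h shams, the 24 h shams were lower in 59 of 91 genes and higher in 32, at a median of -0.26 and a range of -2.19 to 1.18. Ndufc1, an accessory subunit of complex I, was at 9.76 CPM in 24 h shams and at 47.2 and 42.8 CPM in the later shams. Ndufs6 was at 159 CPM and then at 73.5 and 66.6 CPM. On the log2 scale these shams differed by -2.19 for Ndufc1, -1.45 for Atp5l, 1.17 for Ndufs5 and 1.18 for Ndufs6. The 24 h effects of these genes pointed towards the later shams. At 48 h Ndufa2 and Atp5e (-1.51 and -1.68) fell and Atp5d (0.92) rose, all towards the 24 h shams. Atp5g1 (-1.03) rose away from them at 48 h, and Cycs differed little between shams (0.10). The part of this difference in the nephrectomy effects was not tested. The 48 h shams differed less from those of 72 h, which share their batch: 87 of 91 genes were higher at 48 h, at a median of 0.10.

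The tissue isoforms of complex IV were mostly near the detection limit of these libraries. Cox6a2, the heart and muscle form of Cox6a1, rose at 48 h from 0.43, 0.71 and 1.32 CPM to 1.05, 1.52 and 2.73 CPM (1.14, SE 0.30, edgeR adjusted p = 0.0115), with overlap. Cox6b2, the testis form of Cox6b1, rose at 24 h (0.67, adjusted p = 0.0205) and at 48 h (0.72, adjusted p = 0.0294), with group means of 1.28 to 3.99 CPM at these times. Ndufa4l2, a hypoxia-induced paralogue of Ndufa4, rose at 48 h from 1.72, 2.12 and 2.54 CPM to 2.46, 2.87 and 3.76 CPM (0.49, SE 0.15, edgeR adjusted p = 0.0250). Cox7a2, the common form of Cox7a1, rose at 24 h (0.39) and Cox6b1 at 24 and 48 h (0.28 and 0.31). Ndufa4 rose at 24 h, from 98.7, 105 and 119 CPM to 119, 164 and 167 CPM (0.55, SE 0.08, edgeR adjusted p = 0.000323), and stood at 0.02 with the covariate. Cox8b, the form of brown fat and muscle, was at 0 in all 24 h shams and reached 11.3 CPM in sham replicate 3 of 48 h, 9.18 CPM in nephrectomy replicate 5 of 48 h and 7.08 CPM in nephrectomy replicate 4 of 24 h. The summed level of 5 brown fat markers in those libraries was 174, 103 and 198 CPM, against 15.6 to 63.5 CPM in the others. Summed skeletal and heart muscle markers in the same libraries were 0.497, 0.904 and 1.31 CPM. The highest other library, nephrectomy replicate 6 of 72 h, had 0.656 CPM. The part of fat or muscle tissue in the level of Cox8b was not tested.

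Other cell types were checked with marker lists. Red blood cell markers averaged 144 CPM in shams and 187 CPM in nephrectomy kidneys at 24 h, 623 and 446 CPM at 48 h and 704 and 451 CPM at 72 h. Podocyte markers averaged 464 and 406 CPM at 24 h, and intercalated cell markers 215 and 178 CPM at 72 h. Summed skeletal and heart muscle markers stayed at or under 1.31 CPM in every library. Proximal tubule markers stood at group medians of 16699 to 19813 CPM and thick ascending limb markers at 5672 to 6794 CPM. At 48 h the thick ascending limb sum was 5288, 6327 and 7911 CPM in shams and 4196, 5672 and 5995 CPM in nephrectomy kidneys. The part of these cell types in the results was not tested.

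The other genes of the pathway were taken from lists of assembly factors and regulators, whose counts stand beside 14.2% of all genes that rose and 13.1% that fell at 24 h and 16.9% and 16% at 48 h. Of 26 assembly factors of complex IV, 8 rose and 2 fell at 24 h, and of 25 tested at 48 h 6 rose and 1 fell. Of 6 for complex III, 2 rose and 1 fell at 24 h and 4 rose and none fell at 48 h. Of 12 for complex I outside the name rule the counts were 4 and 1, then 3 and 2; of 4 for complex II, 2 and 0, then 1 and 1; and of 5 for the ATP synthase, 4 and 0, then 0 and 0. No gene of these lists was called at 72 h. The lowest p at 24 h were those of Uqcc1, a complex III assembly factor, at 50.02 ± 2.18 CPM in shams and 65.8 ± 4.72 CPM in nephrectomy kidneys (SD, n = 6; 0.41, edgeR adjusted p = 0.000228), Atpaf1, which assembles the F1 part of the ATP synthase (0.41, adjusted p = 0.000500), and Cyc1, cytochrome c1 of complex III (0.34, adjusted p = 0.000617). At 48 h they were those of Atpif1, the inhibitor that stops the ATP synthase from running backwards, at 128 ± 11.9 and 217 ± 26.9 CPM (0.75, edgeR adjusted p = 0.000346), Cox20, an assembly factor of complex IV (0.72, adjusted p = 0.000357), and Higd2a, a complex IV factor (0.89, adjusted p = 0.000370). None of these was called with the covariate.

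Among 23 tested regulators of respiratory chain transcription 1 rose and 5 fell at 24 h, and at 48 h 1 of 24 rose and 5 fell. Over all genes 14.2% rose and 13.1% fell at 24 h, and 16.9% and 16% at 48 h. None of the regulators was called with the covariate, where Gabpa stood at -0.19 and Nrf1 at -0.08 at 24 h. At 24 h the genes that fell were Crtc2, Gabpa, Gabpb2, Nrf1 and Gabpb1, and Tfam, the mitochondrial transcription factor, rose (0.16, adjusted p = 0.0497). Gabpa and Nrf1, the factors of the 2 motifs marked above, fell by 0.31 and 0.22 on the log2 scale (edgeR adjusted p = 0.000985 and 0.0157). Ppargc1a, the coactivator PGC-1alpha, did not pass at any time, with sham and nephrectomy means of 114 and 99.3 CPM at 24 h, 82.4 and 84.1 CPM at 48 h and 86.2 and 79.2 CPM at 72 h. At 24 h, 9 of 19 tested genes with the NRF1 motif rose and 3 fell, at a median of 0.14, and of 56 without it 35 rose and 5 fell, at a median of 0.27. With the ETS motif 18 of 28 rose and 1 fell (median 0.25), and without it 26 of 47 rose and 7 fell (median 0.24). At 48 h the order of the NRF1 medians was the other way, 0.15 with the motif and 0.11 without, and at 72 h they were 0.09 and 0.11. The YY1 motif split the medians into 0.42 with and 0.22 without at 24 h, and into -0.24 and 0.16 at 48 h, over 10 genes with it. None of these splits was tested. The mitochondrially encoded respiratory genes, which are counted apart from the 95 genes, rose in 1 of 13 cases at 24 h and fell in 2, at a median of -0.04. At 48 h 9 rose and 2 fell, at a median of 1.09, and at 72 h 0 of 13 were called. None was called with the covariate, and at 48 h their share of the counts was 15.2% in replicate 6 against 25.8% to 26.4% in the other 5 nephrectomy libraries.

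The single-nucleus data held 16500 nuclei in 30 annotated classes, 2 mice per group, with replicate 1 of both groups in batch 3 and replicate 2 in batch 4. Median UMI counts per nucleus were 7581 and 9909 in the shams and 8370 and 8063 in the nephrectomy mice. Between 5 and 13 barcodes per library were shared with another library. The classes are the authors' annotation. Marker lists had their highest sums in classes of matching name: proximal tubule markers in PTS1 (proximal tubule segment S1), thick ascending limb markers in CTAL2, podocyte markers in Podo and endothelial markers in EC1.

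In the nuclei the respiratory chain genes differed by labelled batch, and none passed the test of nephrectomy against sham. Their summed level was 5377 CPM in sham 1, 13471 in sham 2, 5688 in nephrectomy 1 and 11885 in nephrectomy 2. Both mice of batch 4 lay above both of batch 3, as did the mitochondrially encoded share, at 5.05% and 7.36% against 0.603% and 0.924%. Within batch 3 the log2 ratio of nephrectomy over sham was 0.08 and within batch 4 it was -0.18. By edgeR's test on counts summed per mouse 0 of 94 tested genes were called, as were 0% of all 19976 genes, of which 1.80% had an unadjusted p under 0.05 (no respiratory chain gene was called by the DESeq2 Wald test either, where 0.12% of all genes were). The median was -0.04, with 43 of 94 positive, against 47.9% of all genes. With the batch as a block 0 were called, against 1.04% of all genes, and the median was 0.02. Of 93 genes with at least 100 UMIs, 86 were higher in batch 4 than in batch 3 in both groups. Of these 93, 11 were higher and 14 lower with nephrectomy in both batches, and 68 had opposite signs.

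By complex, the log2 ratios over all nuclei in batches 3 and 4 were 0.07 and -0.19 for complex I, 0.07 and 0.00 for II, 0.11 and -0.07 for III, 0.43 and -0.23 for cytochrome c, 0.06 and -0.28 for IV and 0.10 and -0.16 for V. Cycs was at 57.5 and 206 CPM in the shams and 77.5 and 176 CPM in the nephrectomy mice. It was thus higher with nephrectomy in batch 3 and lower in batch 4. Over all nuclei the lowest p in each direction were those of 2 nearly silent isoforms, Cox8b at 0.58, 0.23, 0.16 and 5.18 CPM and Cox6b2 at 3.45, 3.46, 2.06 and 2.29 CPM, neither called.

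No respiratory chain gene was called in any of the 23 classes with at least 10 nuclei in every mouse, and class medians ranged from -0.17 in ICB, a class of intercalated cells, to 0.23 in DTL2, a class of the thin limb. In PTS1, the largest class with 2697 nuclei, the summed level was 4766, 12816, 4739 and 11106 CPM (sham 1, sham 2, nephrectomy 1, nephrectomy 2), with log2 ratios of -0.01 and -0.21 in the 2 batches. The lowest p there were those of Cox6a2 and Atp5s, neither called. In MTAL, the medullary thick ascending limb, it was 7785, 15165, 8740 and 13919 CPM, with log2 ratios of 0.17 and -0.12. In both classes the batch difference was larger than the group difference.

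**Figure D4:**
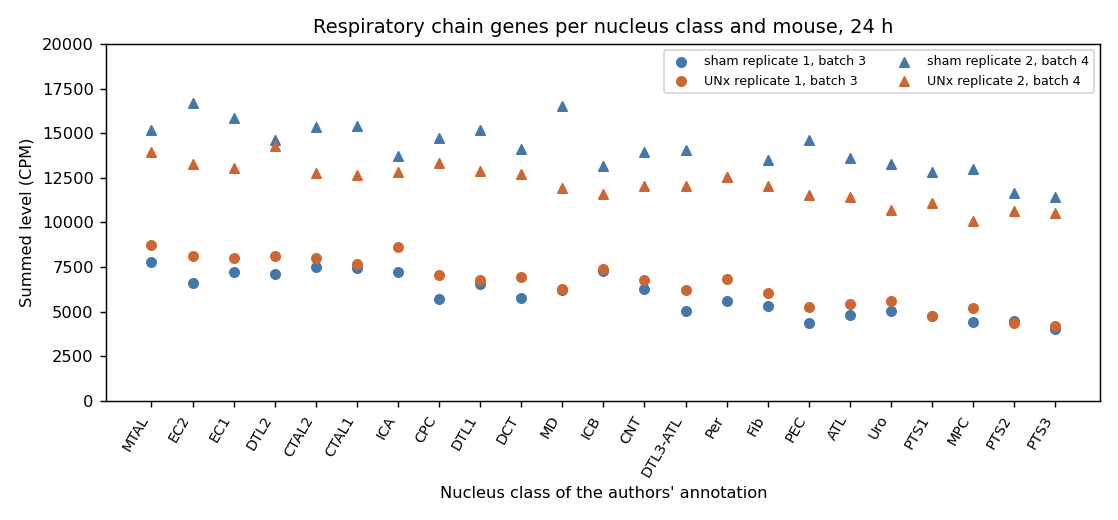
Summed level of the respiratory chain genes in CPM (y axis) in each of the 23 tested classes (x axis, ordered by mean rank) for the 4 mice (circles, batch 3; triangles, batch 4). Both mice of batch 4 lie above both of batch 3 in every class shown.

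Ranked within each mouse over the 23 classes, MTAL had the highest mean rank, with ranks of 1, 7, 1 and 2 in sham 1, sham 2, nephrectomy 1 and nephrectomy 2. The endothelial classes EC2 and EC1, DTL2 and the cortical classes CTAL2 and CTAL1 came next, and their ranks overlapped between mice. The 3 proximal tubule classes and MPC stood lowest, and PTS3 had ranks of 23, 23, 23 and 22. These values are shares of the UMIs in nuclei and not levels per cell. Median UMI counts were 8358 to 14970 per mouse in the 3 proximal tubule classes and 6134 to 7250 in MTAL, and their part in the order was not tested. A class of 120 nuclei to which the annotation gives no cell type stood outside this range, at 32910, 49474 and 33777 CPM in the 3 mice that held it. Its median UMI counts were 3414, 5508 and 4384, its mitochondrially encoded share was 3.68% to 10.1%, and red cell markers were highest there. It was not tested.

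The tissue isoforms had low counts in every class of nuclei, and their levels were not tested between classes. Proximal tubule markers stood at 707 to 9723 CPM in the classes outside the proximal tubule. They stood at 17060 CPM in PTS1, 12959 CPM in PTS2 and 7838 CPM in PTS3, so PTS3 lay within the range of the other classes. The part of RNA from other classes in these levels was not tested. Ndufa4l2 was highest in the JG cell class (renin cells beside the glomerulus) at 25.6 CPM from 9 UMIs, and Cox4i2, the hypoxia-responsive form of Cox4i1, was highest there as well at 12.8 CPM from 4 UMIs. Cox6a2 stood at 2.88 CPM from 94 UMIs in PTS1, and Cox6b2 10.4 CPM from 58 UMIs in fibroblasts. Brown fat, white fat and muscle markers were all highest in the adipocyte class, with muscle markers at 70.7 CPM. Cox8b stood at 18.2 CPM from 11 UMIs in the class without a cell type and at 13.0 CPM from 14 UMIs in the adipocyte class. With so few UMIs these values are descriptions.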

How the data were processed

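Bulk values are estimated counts per gene that the authors deposited, made with FastQC 0.11.8, Salmon 1.5.0 and R 4.10 on GRCm39, per the submitters' processing notes. Nucleus values are estimated counts per gene and nucleus that the authors deposited with cell classes, made with alevin and Seurat on mm10, per the same notes; treatment of doublets is not given in the sources used here. Of values above 0, 50.4% in bulk and 13.9% in nuclei were not whole, and all were rounded after summing where nuclei were summed. GENCODE M21 named 28340 of 28467 bulk gene IDs. The genes and lists were chosen with earlier results of these data known.

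Each bulk time point was tested with edgeR 4.0.16 (quasi-likelihood, TMM, filterByExpr) in R 4.3.3 with Benjamini-Hochberg adjustment over all genes, and a gene was called at an adjusted p under 0.05. Levels are CPM with TMM factors over all 36 libraries. Differences between times were fitted over all 36. The profile score projects log2(CPM + 1) of annotated pseudogenes with a mean count of at least 10, each sham scored with itself left out. Nuclei were summed per mouse and class, for classes with at least 10 nuclei in every mouse. The 2 nucleus replicates of each number share a labelled batch and deviated together (r = 0.85), so that fit was repeated with the replicate as a block. Named genes are, per complex and time, the lowest p in each direction at a mean log2 CPM of at least 3, fixed isoform pairs, all of complex II, the lowest p per difference between times and in the nuclei, and pathway genes with the lowest p; others were chosen after their values were seen. Alternatives were other scalings, DESeq2 1.42.0, no filter, 1 fit over all libraries, the block, the score and leaving out each library. The tests were also run on simulated counts with a fixed spread and no batch or profile shift. Those runs do not cover the shifts between libraries described above. Replicates are separate mice. Totals were 14.9 to 24.1 M counts per bulk library.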

Additional observations from a re-analysis of the deposited data

Results flagged for a closer look

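The levels of single genes and complex sums were tested, within each group of 6 libraries, for a single library far from the others. Of 250 such tests, 33 found 1. Chance gives about 1 in 20 for independent tests. These tests share libraries, and the sums contain their own genes, so the 33 are not independent findings. In nephrectomy replicate 6 of 48 h this held for Atp5e (129 CPM), Atp5l (316), Cox5a (274), Ndufa2 (82.6), Ndufa4 (399) and Uqcrfs1 (347), all above the other 5, and for Ndufa12 (105 CPM), below them. The same library had a profile score of 0.01 where the others had 0.70 to 0.75.

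In nephrectomy replicate 6 of 72 h the summed levels were below the other 5 for complex I (3568 CPM), II (1410), III (1584), IV (2747), V (6661) and all genes (16212). So were Atp5g1 (202 CPM), Atp5h (175), Atp5l (204), Cox4i1 (461), Cox6b1 (246), Cox7a2 (147), Ndufa4 (252), Ndufb8 (196), Ndufv2 (115), Sdhb (216), Sdhc (221), Sdhd (233) and Uqcrfs1 (221). Sham replicate 5 of 72 h was lowest for summed complex II (1342 CPM), Sdha (711) and Sdhb (205).

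Other single libraries were sham replicate 3 of 48 h for Cox7a1 (14.8 CPM), nephrectomy replicate 6 of 24 h for Ndufaf3 (10.7) and Ndufs6 (117), and nephrectomy replicate 1 of 48 h for Ndufaf2 (17.5).

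By the test of the difference, the nephrectomy effect differed from 24 to 48 h for Ndufa2 (-1.23) and Ndufs6 (1.23), in log2 units. From 24 to 72 h it differed for Atp5l (-0.63) and Ndufs5 (0.82), and from 48 to 72 h for Ndufa12 (-1.04) and Ndufa2 (0.64). With the profile score as a covariate, only Ndufs5 from 24 to 72 h was called among these. Time and labelled batch cannot be told apart in the differences that involve 24 h.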

How the results depend on the processing

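When the profile score entered as a covariate, 0 genes were higher and 0 lower at 24 h (median 0.041) and at 48 h (median 0.32). Differences between times were then 0 and 0 from 24 to 48 h, 3 more positive and 0 more negative from 24 to 72 h, and 0 and 0 from 48 to 72 h. The score differed between the groups at 24 and 48 h, so score and nephrectomy are confounded there. At 24 h the groups did not overlap in score (0.94 to 1.04 in shams, 0.73 to 0.92 with nephrectomy). Among the nephrectomy libraries of 24 h only replicate 6 stood apart in score, at 0.92. The covariate values of 24 h therefore cannot separate score from nephrectomy. At 48 h the covariate fit separates them largely through nephrectomy replicate 6. The sign turned with the covariate for Atp5d (0.12), Atp5e (-0.012), Ndufaf3 (-0.10), Uqcrb (0.061) and Uqcrfs1 (-0.088) at 24 h. At 48 h it turned for Atp5e (0.26) and Ndufa2 (0.18), and likewise in nephrectomy replicate 6 alone (0.25 and 0.17), where 0 genes were higher and 0 lower at a median of 0.30. The cause was not tested.

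Genes lower at 48 h numbered 4 with the DESeq2 Wald test, 12 in 1 fit over all 36 libraries and 10 with the replicate block. At 72 h the DESeq2 Wald test called 3 (2.67% of all genes rose) and the fit over all libraries 1. Shares of all genes in the other fits are not given here, so those counts cannot be read against a background. Without mitochondrially encoded genes the 48 h log2 ratios of summed levels were 0.010 for complex I, 0.014 for III and -0.024 for all genes. With library sizes alone they were -0.16 for I, -0.36 for its assembly factors, -0.36 for II, -0.15 for III, 0.73 for cytochrome c, -0.13 for IV, -0.23 for V and -0.19 for all.

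Leaving out each library gave 45 to 55 higher and 8 to 10 lower at 24 h (median 0.20 to 0.24), 29 to 39 and 1 to 26 at 48 h (0.05 to 0.14), and 0 to 8 and 0 to 0 at 72 h (0.06 to 0.14). The 26 and the 8 came without nephrectomy replicate 6. Shares of all genes for the other fits with a library left out are not given here. Differences ranged from 22 to 27 more positive and 29 to 38 more negative for 24 to 48 h, 7 to 8 and 0 to 14 for 24 to 72 h, and 2 to 29 and 12 to 20 for 48 to 72 h. In all nuclei 0 to 0 were called (median -0.87 to 0.93), and in single classes 0 to 1.

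In bulk, same-numbered libraries deviated together in at most 2 of 6 pairs, so the samples share only a number. The block called 31 higher at 48 h and 0 at 72 h, and the share of all genes in that fit is not given here. For named genes, 2112 of the alternative values kept direction and side of the threshold, 85 lost the call, 37 gained it and 9 changed sign.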
